A study of Homo sapiens with 6 samples.

Results

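The genes described here are the receptors BCMA (TNFRSF17), TACI (TNFRSF13B), the BAFF receptor (TNFRSF13C) and CD40, the TRAF adapter proteins TRAF1, TRAF3, TRAF5 and TRAF6 that act beneath them, and the NF-kB-inducing kinase NIK (MAP3K14). They were chosen by symbol: every probe set that the array annotation pairs with 1 of 10 listed genes was taken, which gave 16 probe sets of 9 genes among 54613 non-control probe sets of the array. The listed gene TRAF2 was not analysed here. No probe set paired a member with a further symbol.

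The cells were MM1.S, an established human multiple myeloma line, which is a tumour of plasma cells. The tested cultures were infected with a lentivirus carrying an shRNA against beta-catenin (titled pKLO beta-catenin shRNA), and their reference cultures with a lentivirus carrying a control shRNA (titled pKLO GFP control). Cells of both kinds were sorted for GFP and cultured in triplicate, so each group had 3 arrays, of 1 cell line and with no ligand added that the labels record. The labels do not state separate infections, so the p-values measure the spread between these cultures, which may be technical; a description of embryos that also stands in the labels goes against the cell line and was not used.

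BCMA, TACI and the BAFF receptor bind the cytokines BAFF and APRIL, and CD40 binds a ligand carried by activated T cells. Their tails recruit TRAF proteins. In resting cells TRAF3 brings newly made NIK to a ubiquitin ligase complex that has it destroyed; when a receptor draws TRAF3 away, NIK accumulates, activates the kinase IKK alpha and starts the processing of the NFKB2 precursor, the non-canonical NF-kB pathway. TRAF6 instead builds ubiquitin chains that switch on the canonical pathway. Plasma cells and myeloma cells depend on BCMA for survival signals, and some myelomas carry mutations in genes of this pathway, TRAF3 among them.

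The deposited values are on the log2 scale and have a floor at 4. A probe set was tested if its mean over the 6 arrays reached 5.49, the median over all non-control probe sets, and called if its limma p, adjusted by the Benjamini-Hochberg method over all 27307 probe sets tested, was below 0.05. Every change is the knockdown mean less the control mean, in log2 units. CTNNB1, the targeted gene, read 6.39, 6.53 and 6.34 in knockdown cultures, against 7.82, 7.67 and 7.75 in control cultures on its brightest probe set (201533_at), a change of −1.33 (SE 0.10, limma adjusted p = 5.91e-10). Another probe set, 223679_at, was higher by 0.33 (limma adjusted p = 0.0190), and a dim one, 1554411_at, differed by −0.071 (limma adjusted p = 0.658). The medians of the 3 knockdown arrays lay between 5.50 and 5.54 and those of the 3 control arrays between 5.44 and 5.50, and Pearson's r between a knockdown and a control array, taken across probe sets that do not count as replicates, was 0.945 to 0.953. Array control probe sets for 18S ribosomal RNA averaged 10.62 in knockdown and 9.27 in control cultures (exact two-sided permutation p = 0.1); their part in the results below was not tested. All 7 plasma cell markers passed the filter. Of 6 mature B cell markers measured, CR2 and BACH2 were called higher (by 1.05 and 1.10, limma adjusted p = 3.75e-07 and 2.66e-06), CD22 was not called, and PAX5, MS4A1 and FCER2 were below the filter. Their summed linear level, taken as 2 to the power of the value less 16, was 409 to 460 in knockdown and 280 to 332 in control cultures (exact two-sided permutation p = 0.1). For the T and NK cell, myeloid, fibroblast and kidney epithelial markers the summed levels had an exact two-sided permutation p of 0.2 to 0.6. Among these markers the myeloid CSF1R was called higher (by 0.31, limma adjusted p = 0.0370), and no other was called.

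Of the 16 member probe sets, 12 were tested, and limma called 6 of these: 4 were higher in the knockdown and 2 were lower. Over all probe sets the share called was 43.9%, with 24.5% higher and 19.5% lower, so the members were called about as often as other probe sets. TRAF1 205599_at and TRAF3 221571_at, 2 of the 6, passed the filter only through the group in which they were high, so these counts lend no support of their own. TNFRSF17 and 1 probe set of TRAF3 fell. TNFRSF13B, CD40, TRAF5 and 1 probe set of TRAF1 rose. TNFRSF13C, TRAF6 and MAP3K14 were not called on any probe set. The called changes were small: between 1.22-fold (TNFRSF13B) and 1.67-fold (TRAF1) on the deposited scale, the upper end being such a probe set. If 16 was added before the log was taken, which the floor at 4 leaves possible and no source states, the changes of dim probe sets are understated.

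**Figure D1:**
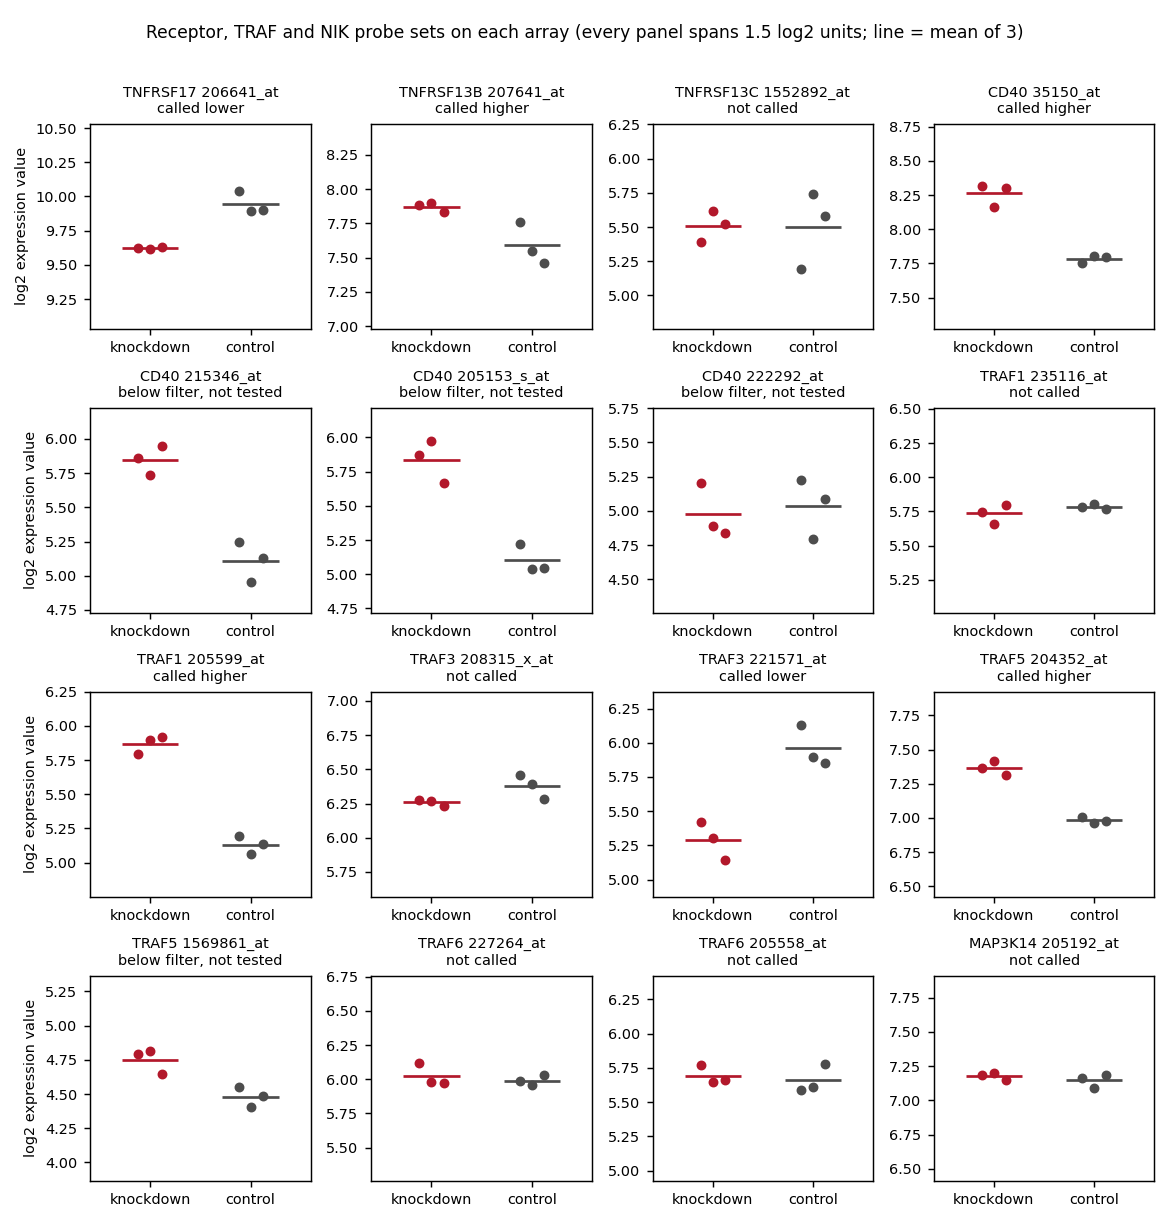
Log2 expression value (y axis) of each of the 16 probe sets on the 3 knockdown arrays (red, left) and the 3 control arrays (grey, right); lines are group means, and every panel spans the same height. The groups are fully apart in 10 of the 16 panels, among them TNFRSF17 (lower), CD40 35150_at (higher) and TRAF5 204352_at (higher). They overlap for TNFRSF13C, CD40 222292_at, TRAF1 235116_at, both TRAF6 probe sets and MAP3K14. Over all non-control probe sets, tested or not, the groups were apart for 37.2%.

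The receptors moved in different directions. TNFRSF17, which encodes BCMA, the plasma cell receptor for APRIL and BAFF and the target of several myeloma therapies, read 9.62, 9.62 and 9.63 in knockdown cultures and 10.04, 9.89 and 9.90 in control cultures on its single probe set, 206641_at. The 3 knockdown arrays were nearly equal and all lay below the lowest control array. The means were 9.62 ± 0.0059 in knockdown and 9.94 ± 0.082 in control cultures (SD, n = 3 each), and the fall was −0.32 (95% interval −0.47 to −0.18, limma adjusted p = 6.05e-04), which leaves 80.0% of the control level. In a test against a change of 1.2-fold it was not called (limma treat, adjusted p = 0.599). In size the change exceeded those of 61.7% of all probe sets tested. Of the 7 plasma cell markers, 4 were called higher and 2 lower. PRDM1 rose by 0.51, CD38 by 0.39, SLAMF7 by 0.80 and MZB1 by 0.82 (limma adjusted p = 6.74e-06, 0.00320, 1.62e-07 and 9.10e-10). The 2 called lower were SDC1, by −0.20, and IRF4, by −0.23 (limma adjusted p = 0.0370 and 0.00790). XBP1 was not called (−0.11, limma adjusted p = 0.101). The summed linear level of the 7 markers was 6327 to 6562 in knockdown and 5362 to 5808 in control cultures (exact two-sided permutation p = 0.1). The part of these markers in the BCMA result was not tested. In bulk RNA, fewer cells of a type and less RNA per cell cannot be told apart.

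TNFRSF13B encodes TACI, the other receptor for both cytokines on cells of this lineage. Its single probe set, 207641_at, read 7.89, 7.90 and 7.83 in knockdown cultures, against 7.76, 7.55 and 7.46 in control cultures. All knockdown arrays lay above all control arrays, but the highest control array came within reach of the lowest knockdown array, and the control SD of 0.15 exceeded the knockdown SD of 0.035 (n = 3 each). TACI rose by 0.28 (95% interval 0.073 to 0.49, limma adjusted p = 0.0268), or 1.22-fold. This call was lost without control replicate 2 (change 0.26, limma adjusted p = 0.0582), without control replicate 3 (0.22, 0.138), without knockdown replicate 1 (0.27, 0.0930) or without knockdown replicate 2 (0.27, 0.0801). It was also lost when arrays were centred on their medians (0.23, limma adjusted p = 0.0716), without moderation of the variances (adjusted p = 0.0916) and in the test against a change of 1.2-fold (limma treat, adjusted p = 0.989).

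The BAFF receptor gene TNFRSF13C, whose product binds BAFF alone and sustains mature B cells, was dim. Probe set 1552892_at read 5.39, 5.61 and 5.52 in knockdown cultures and 5.19, 5.74 and 5.58 in control cultures. The groups overlapped, with the lowest and the highest array both among the controls. The change was 0.0050 (95% interval −0.28 to 0.29, limma adjusted p = 0.981), so a change of about 1.2-fold either way was not detectable on this probe set.

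CD40, the receptor through which T cells license B cells, rose. Its brightest probe set, 35150_at, read 8.32, 8.16 and 8.30 in knockdown cultures, against 7.75, 7.80 and 7.79 in control cultures. No knockdown array came near the control range. The rise was 0.48 (95% interval 0.29 to 0.67, limma adjusted p = 1.92e-04), or 1.39-fold. In the test against a change of 1.2-fold it was just not called (limma treat, adjusted p = 0.0702).

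CD40 had 3 further probe sets, all below the filter by their mean over the 6 arrays. Probe set 215346_at read 5.86, 5.74 and 5.95 in knockdown cultures and 5.25, 4.96 and 5.13 in control cultures. Probe set 205153_s_at read 5.87, 5.97 and 5.66 in knockdown cultures and 5.22, 5.04 and 5.04 in control cultures. Both had groups fully apart in the same direction as the bright probe set, with differences of 0.74 each (exact two-sided permutation p = 0.1, the lowest that 3 against 3 arrays allow). In a fit over all 54613 non-control probe sets they were called (limma adjusted p = 3.95e-04 for 215346_at and 4.38e-04 for 205153_s_at). The dimmest, 222292_at, averaged 4.98 in knockdown and 5.03 in control cultures with overlapping groups (limma adjusted p = 0.837 in that fit). CD40 was therefore higher on 3 of its 4 probe sets.

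**Figure D2:**
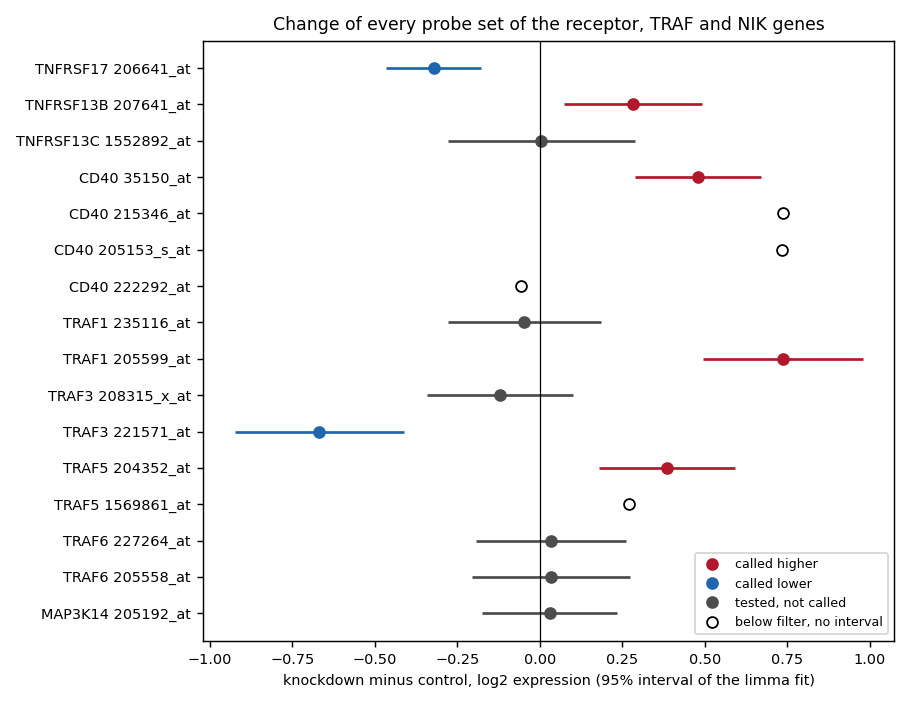
Change of each of the 16 probe sets (x axis, knockdown minus control on the log2 scale); bars are 95% intervals of the limma fit, and open circles are the 4 probe sets below the filter, which have no interval there. TRAF1 205599_at (0.74) and TRAF3 221571_at (−0.67) lie far from the other probe set of the same gene, while both TRAF6 probe sets and MAP3K14 lie near 0.

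Among the adapters, TRAF5 was the one whose brightest probe set was called. TRAF5, a relative of TRAF2 that binds several receptors of the TNF family, read 7.37, 7.42 and 7.31 on probe set 204352_at in knockdown cultures, against 7.01, 6.96 and 6.98 in control cultures. The groups were fully apart and each was tight (SD 0.053 in knockdown and 0.026 in control cultures, n = 3 each). TRAF5 rose by 0.38 (95% interval 0.18 to 0.59, limma adjusted p = 0.00305), or 1.31-fold. In the test against a 1.2-fold change it was not called (limma treat, adjusted p = 0.393). A dim TRAF5 probe set, 1569861_at, also had groups fully apart, at 4.79, 4.82 and 4.64 in knockdown cultures and 4.55, 4.41 and 4.48 in control cultures, but was not called in the fit without a filter (limma adjusted p = 0.137).

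The 2 probe sets of TRAF1 disagreed. TRAF1 has no RING finger, forms complexes with TRAF2 and is itself a known NF-kB target gene. Probe set 205599_at, which the annotation pairs with the RefSeq transcript of the gene, read 5.79, 5.90 and 5.92 in knockdown cultures, against 5.20, 5.06 and 5.14 in control cultures. The groups were fully apart, and the change was 0.74 (95% interval 0.50 to 0.98, limma adjusted p = 1.93e-05), or 1.67-fold. Its control mean of 5.13 lay below the filter, so this probe set was tested because its knockdown values were high, and it fell out of the test when any 1 knockdown array was left out. The brighter probe set, 235116_at, which is paired with a GenBank entry outside RefSeq, read 5.75, 5.66 and 5.80 in knockdown cultures and 5.78, 5.80 and 5.77 in control cultures. Those groups overlapped (change −0.047, 95% interval −0.28 to 0.18, limma adjusted p = 0.764). Averaged over both probe sets, TRAF1 changed by 0.35 (limma adjusted p = 0.00225 over all genes tested), so whether TRAF1 is called higher turns on the probe set.

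TRAF3, the adapter that marks NIK for destruction, also had probe sets that differed in size of change, though not in direction. Probe set 221571_at read 5.42, 5.31 and 5.14 in knockdown cultures, against 6.13, 5.90 and 5.85 in control cultures. The groups were fully apart and the fall was −0.67 (95% interval −0.92 to −0.41, limma adjusted p = 1.24e-04), which leaves 62.9% of the control level. Here the knockdown mean of 5.29 lay below the filter, so this probe set was tested because its control values were high. The brighter probe set, 208315_x_at, whose mark _x_ is given by the maker to probes that may also bind other transcripts, read 6.28, 6.27 and 6.23 in knockdown cultures and 6.46, 6.39 and 6.29 in control cultures. Its groups were also apart, by a narrow margin, but the change of −0.12 was not called (95% interval −0.34 to 0.10, limma adjusted p = 0.389). Averaged over both probe sets TRAF3 changed by −0.39 (limma adjusted p = 0.00237 over all genes tested), so whether TRAF3 is called lower turns on how its probe sets are combined. Taking unmarked probe sets first gives the −0.67 of 221571_at (limma adjusted p = 6.34e-05 in that fit over genes). Both groups had TRAF3 signal above the floor of the array on each probe set.

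TRAF6 and MAP3K14 showed no detectable change. TRAF6, the ubiquitin ligase that serves CD40 as well as interleukin-1 and Toll-like receptors, read 6.12, 5.98 and 5.98 on probe set 227264_at in knockdown cultures and 5.98, 5.96 and 6.03 in control cultures, a difference of 0.035 (95% interval −0.19 to 0.26, limma adjusted p = 0.824). Its other probe set, 205558_at, read 5.77, 5.64 and 5.66 in knockdown cultures and 5.59, 5.61 and 5.78 in control cultures, a difference of 0.034 (95% interval −0.21 to 0.27, limma adjusted p = 0.835). MAP3K14, which encodes NIK, read 7.19, 7.20 and 7.15 on probe set 205192_at in knockdown cultures and 7.16, 7.09 and 7.19 in control cultures. The groups overlapped, and the difference was 0.029 (95% interval −0.18 to 0.24, limma adjusted p = 0.836). NIK is controlled mainly by protein turnover, which arrays of RNA do not read. For both genes the intervals leave room for a change of up to about 1.2-fold.

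Across the 16 probe sets the groups were fully apart for 10, 7 higher and 3 lower in the knockdown. Over all non-control probe sets, tested or not, the groups were apart for 37.2%, 22.0% higher and 15.1% lower. Among the 12 tested it was 7, 4 higher and 3 lower, where 52.8% of all probe sets tested had groups apart, 30.2% higher and 22.5% lower.

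Promoter sequences from RefSeq (GRCh38.p14, 250 bases before to 50 after a transcription start) were matched by symbol for TNFRSF13B, TRAF1, TRAF3, TRAF5, TRAF6 and MAP3K14. They were searched on both strands for the kB consensus of NF-kB, for the TCF/LEF core of beta-catenin's DNA-binding partners (CTTTG followed by a pair of bases that are each A or T) and for the AP-1 motif TGANTCA. Among these genes a kB match lay in the promoter of TRAF3 and a TCF/LEF match at the middle of 3 listed starts of TRAF1; the promoters of TNFRSF13B, TRAF5, TRAF6 and MAP3K14 held none of the motifs, and AP-1 was matched in none. Among all 35116 listed promoters 11.3% hold a kB match, 13.8% a TCF/LEF match and 7.71% an AP-1 match. The 2 promoters with a match are shown with that of NFKB2, the pathway's effector gene described below, at the second of its 3 listed starts. Capitals mark the matches, which in NFKB2 include a pair that overlap. NFKB2 was searched along with other genes of the non-canonical NF-kB core. Of these, BIRC3, which had no expression value here, held kB matches, and CHUK held a TCF/LEF match. The promoters of BIRC2, OTUD7B and PELI1 held none of the motifs.
TRAF3, chr14:102777199-102777498, plus strand: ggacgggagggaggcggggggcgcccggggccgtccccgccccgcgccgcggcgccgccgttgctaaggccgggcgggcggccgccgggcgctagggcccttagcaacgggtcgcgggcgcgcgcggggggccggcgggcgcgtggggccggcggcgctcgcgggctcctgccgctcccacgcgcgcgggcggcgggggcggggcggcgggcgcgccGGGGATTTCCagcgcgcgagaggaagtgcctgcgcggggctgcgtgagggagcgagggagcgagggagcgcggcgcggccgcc
TRAF1, chr9:120926747-120927046, minus strand: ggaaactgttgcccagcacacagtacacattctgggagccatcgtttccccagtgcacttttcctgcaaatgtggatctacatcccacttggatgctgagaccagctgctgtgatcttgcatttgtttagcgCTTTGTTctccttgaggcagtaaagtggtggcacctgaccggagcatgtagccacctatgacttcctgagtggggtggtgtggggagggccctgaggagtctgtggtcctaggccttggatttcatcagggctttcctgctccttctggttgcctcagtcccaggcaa
NFKB2, chr10:102394328-102394627, plus strand: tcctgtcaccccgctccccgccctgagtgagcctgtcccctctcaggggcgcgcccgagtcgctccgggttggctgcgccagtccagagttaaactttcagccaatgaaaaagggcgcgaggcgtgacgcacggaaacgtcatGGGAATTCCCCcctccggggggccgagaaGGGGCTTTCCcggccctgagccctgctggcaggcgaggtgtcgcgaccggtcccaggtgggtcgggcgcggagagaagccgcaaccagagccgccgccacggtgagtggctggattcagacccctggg
The TRAF3 match GGGGATTTCC begins 33 bases before the listed start, and the TRAF1 match CTTTGTT begins 118 bases before its start. A match of letters is a description and shows neither binding nor its absence in these cells. TRAF3 was called lower on 1 probe set, which passed the filter only through its control values, and NFKB2 higher on 1 probe set. The part of the kB matches in these changes was not tested. The third start of NFKB2 held kB matches too.

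The other genes of the pathway were read from 10 lists, each gene by its brightest probe set in the same fit. Of 78 tested list genes, 34 were higher and 6 lower in the knockdown (43.6% and 7.69%). Among these called genes, TNFRSF1B and TNFRSF21 passed the filter only through the group in which they were high. Over all 12939 genes tested 45.8% were called, 24.4% higher and 21.4% lower. The count of each list below is to be read beside these shares. The lists were chosen with earlier results of these data known, so their counts lend no support of their own. Groups did not overlap for 54.4% of all genes, 29.9% higher and 24.5% lower. The median change was 0.21 over the list genes and 0.046 over all genes.

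The 2 ligands measured, BAFF and APRIL, were not called. TNFSF13B, which encodes BAFF, averaged 5.59 ± 0.13 in knockdown and 5.45 ± 0.18 in control cultures (SD, n = 3 each), a difference of 0.14 (limma adjusted p = 0.381). TNFSF13, which encodes APRIL, averaged 6.35 ± 0.23 in knockdown and 6.11 ± 0.15 in control cultures (SD, n = 3 each), a difference of 0.24 (limma adjusted p = 0.129). Both had overlapping groups. Without knockdown replicate 1 TNFSF13 was called higher (0.36, limma adjusted p = 0.0420).

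In the non-canonical NF-kB core, limma called 5 of 6 tested genes higher and 0 lower, and the median change was 0.47. Over all genes tested, 24.4% were higher and 21.4% lower. The list holds genes that act against NIK, such as BIRC2, beside RELB and NFKB2, so the count does not measure pathway activity. The calls of BIRC2, NFKB2 and OTUD7B were each lost in some other settings. RELB, the partner of the processed NFKB2 product, read 6.91, 6.96 and 6.93 in knockdown cultures, against 6.21, 6.18 and 6.45 in control cultures. Its groups were fully apart, and it rose by 0.65 (limma adjusted p = 3.86e-05). NFKB2 read 8.11, 8.21 and 8.13 in knockdown cultures, against 7.70, 7.73 and 7.84 in control cultures, and rose by 0.40 (limma adjusted p = 0.00136). For NFKB2 this held on 1 of its probe sets, while on 209636_at the difference was 0.11 (limma adjusted p = 0.397), short of a call. The mean over its probe sets was 0.13 and was not called (limma adjusted p = 0.239).

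PELI1, a ubiquitin ligase reported to act on NIK in mouse B cells, rose most in this list, by 1.35, to 7.75 ± 0.12 in knockdown cultures against 6.40 ± 0.17 in control cultures (SD, n = 3 each; limma adjusted p = 1.63e-09). It rose on both of its other tested probe sets. OTUD7B, a deubiquitinase that spares TRAF3, rose by 0.53 (limma adjusted p = 0.00119), while its other tested probe sets differed by 0.28 and 0.081 and were not called, nor was the mean over its probe sets (0.13, limma adjusted p = 0.282). BIRC2, which encodes a ubiquitin ligase of the complex that destroys NIK, rose by 0.30 (limma adjusted p = 0.0284), although its groups overlapped. The BIRC2 call was lost without control replicate 2 (change 0.20, limma adjusted p = 0.150), without knockdown replicate 1 (0.24, 0.154) and without knockdown replicate 2 (0.27, 0.105), and without a filter (limma adjusted p = 0.0726). It was also lost after centring on array medians (0.0667), without the intensity trend (0.0623), without moderation (0.219) and against a 1.2-fold change (0.891). CHUK, which encodes IKK alpha, differed by −0.17 (limma adjusted p = 0.254) and was the core gene that was not called.

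**Figure D3:**
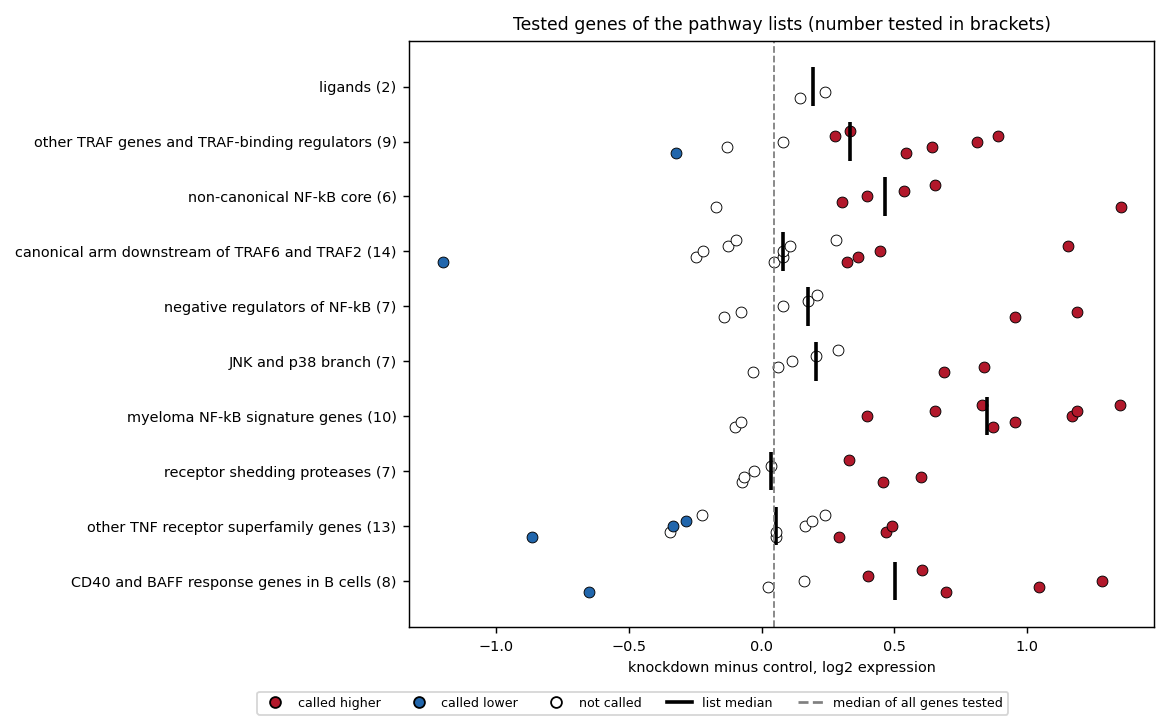
Change of each tested gene of the 10 pathway lists (x axis, knockdown minus control on the log2 scale), 1 row per list with the number tested in brackets; red points were called higher, blue lower and white not called. Thick lines are list medians and the dashed line is the median of all genes tested (0.046). The myeloma NF-kB signature has the highest median (0.85) and UBE2N the lowest value (−1.20). The row labelled downstream of TRAF6 and TRAF2 also holds TRADD, an adapter of TNF receptor 1.

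Of 10 tested genes from a signature of NF-kB activity published for myeloma, 8 were called higher and 0 lower. Their median change was 0.85. Over all genes tested, 24.4% were higher and 21.4% lower. This list was chosen with earlier results of these data known, so its count lends no support of its own. The signature shares 5 of its 10 tested genes with the lists of core genes and of negative regulators. PLEK, which encodes pleckstrin, rose by 1.35 (limma adjusted p = 4.44e-10), and TNFAIP3, which encodes the ubiquitin-editing inhibitor A20, by 1.19 (limma adjusted p = 3.55e-12). CD74, the MHC class II invariant chain, read 11.17, 11.24 and 11.27 in knockdown cultures and 10.14, 10.08 and 9.96 in control cultures, a rise of 1.17 (limma adjusted p = 7.59e-13), or 0.76 as the mean over its probe sets. IL2RG, the common cytokine receptor gamma chain, rose by 0.83 (limma adjusted p = 4.82e-09). Of 7 negative regulators of NF-kB tested, 2 were higher and 0 lower (median 0.18), namely TNFAIP3 and NFKBIA, the inhibitor I kappa B alpha, which rose by 0.95 (limma adjusted p = 1.16e-07), or 0.50 as the mean over its probe sets.

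The canonical arm was mixed. Of 14 tested genes of this arm, which works with TRAF6 and TRAF2, 4 were called higher and 1 lower. Their median change was 0.079. The one that fell was UBE2N, the ubiquitin-conjugating enzyme that works with TRAF6: it read 8.41, 8.43 and 8.32 in knockdown cultures, against 9.57, 9.57 and 9.63 in control cultures (change −1.20, limma adjusted p = 3.62e-11). UBE2N was also lower on its other tested probe sets, by −0.88 on 201523_x_at and −0.60 on 212751_at. TRADD, an adapter of TNF receptor 1, rose by 1.15 (limma adjusted p = 1.59e-08; 0.68 as the mean over its probe sets), the scaffold SQSTM1 by 0.45 (limma adjusted p = 1.71e-05) and the NF-kB subunit RELA by 0.32 (limma adjusted p = 0.00765). Of 5 tested SQSTM1 probe sets, 3 were not called and 244804_at was called higher.

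Of 9 other TRAF genes and TRAF-binding regulators tested, 6 were higher and 1 lower (median 0.33). CAMLG, a membrane protein that binds TACI, rose by 0.89 (limma adjusted p = 1.20e-07), TANK, a TRAF-binding regulator, by 0.81 (limma adjusted p = 6.15e-07) and TRAF4 by 0.64 (limma adjusted p = 3.43e-05). As means over their probe sets TANK and TRAF4 rose by 0.48 and 0.36. TRAF3IP3, a TRAF3-interacting protein of lymphocytes, rose by 0.54 (limma adjusted p = 8.12e-05) and on both of its other tested probe sets. In the JNK and p38 branch 2 of 7 tested genes were higher and 0 lower (median 0.21): the kinases MAP3K1 and MAP3K5 rose by 0.84 and 0.69 (limma adjusted p = 4.02e-07 and 5.41e-06), MAP3K1 by 0.45 as the mean over its probe sets.

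Of 7 tested genes of proteases that cut receptors of this family from the cell surface, 3 were higher and 0 lower (median 0.036). They were PSEN2 and NCSTN, subunits of gamma-secretase, the enzyme that sheds BCMA, which rose by 0.60 and 0.46 (limma adjusted p = 2.00e-04 and 7.03e-04), and ADAM17, which rose by 0.33 (limma adjusted p = 0.00749). Averaged over their probe sets, NCSTN differed by 0.16 and ADAM17 by 0.26, and neither was called.

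Of 13 other TNF receptor superfamily genes tested, 3 were higher and 3 lower (median 0.054). TNFRSF1B and TNFRSF21, counted here, passed the filter only through the group in which they were high. These counts therefore lend no support of their own. TNFRSF1B, TNF receptor 2, which signals through TRAF2, read 5.32, 5.04 and 4.97 in knockdown cultures, against 6.15, 5.90 and 5.88 in control cultures. It fell by 0.87 (limma adjusted p = 9.05e-06), with a knockdown mean below the filter. TNFRSF21 rose by 0.49 and TNFRSF14 by 0.47 (limma adjusted p = 0.00262 and 6.98e-04), the TNFRSF21 control mean of 5.45 lying below the filter. LTBR, the lymphotoxin beta receptor, a further activator of NIK, rose by 0.29 (limma adjusted p = 0.0265). The LTBR call was lost when any 1 of 5 arrays was left out, all but control replicate 2, with limma adjusted p between 0.0511 and 0.0966. It was also lost after centring on array medians (limma adjusted p = 0.0616) and against a 1.2-fold change (limma treat, adjusted p = 0.942). The other tested LTBR probe set, 232819_s_at, differed by −0.15 (limma adjusted p = 0.424), and the mean over LTBR probe sets by −0.036.

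Of 8 tested genes known to respond to CD40 or BAFF in B cells, 5 were higher and 1 lower (median 0.50). The lower one was CD86, a costimulatory molecule, which fell by 0.65 (limma adjusted p = 7.56e-04), while its probe set 210895_s_at was called the other way (0.78, limma adjusted p = 1.82e-05); it is named here after its values were seen, as the one called list gene with opposite calls. The survival genes MCL1 and BCL2L1 rose by 1.28 and 0.69 (limma adjusted p = 2.03e-12 and 6.98e-06), CR2, the complement receptor CD21, by 1.05 (limma adjusted p = 3.75e-07) and the adhesion molecule ICAM1 by 0.61 (limma adjusted p = 7.91e-05). MCL1 rose by less, 0.59, as the mean of its probe sets, and by 0.37 where unmarked probe sets were preferred to those marked _x_ or _s_. CR2 and BCL2L1 also rose by less as means over their probe sets, by 0.47 and 0.34. CR2 is also a mature B cell marker, and the part of the summed level of those markers, given above, in the CD40 result was not tested.

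**Figure D4:**
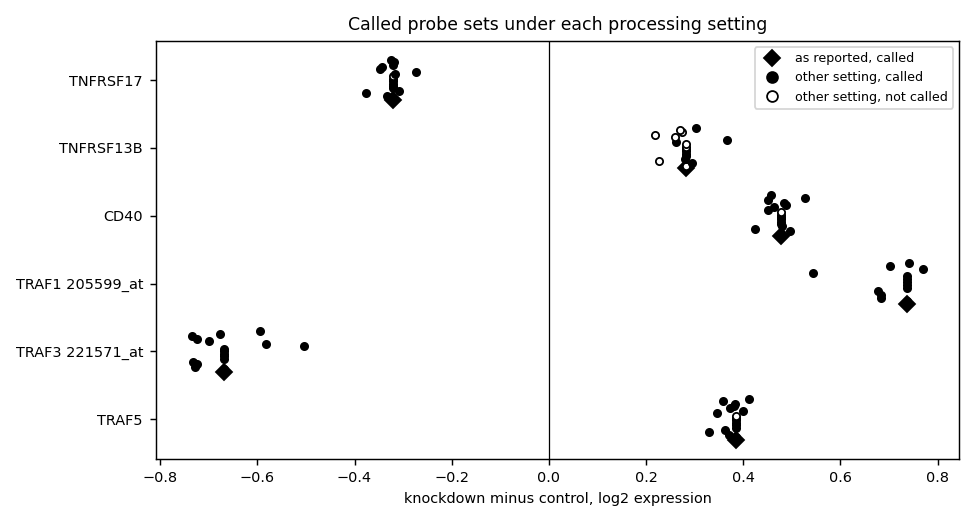
Change of the 6 called member probe sets (x axis, knockdown minus control on the log2 scale) as reported (diamonds) and under each other setting of the probe set fit (circles; filled where called). No value changes sign, and TNFRSF13B has the most open circles. TRAF1 205599_at and TRAF3 221571_at were called in every setting that tested them. Both passed the filter only through the group in which they were high, and a setting that left them untested has no circle. Their filled circles therefore lend no support of their own.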

How the data were processed

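Total RNA of 6 cultures was read as biotin-labelled cRNA on 1-colour Affymetrix arrays, per the labels' protocols. The deposited values are log2 expression values with a floor at 4 (a linear value of 16). MAS5 and PLIER are named, per the submitters' processing notes, without a role; the sources used here give neither the method behind these values nor the scaling between arrays. Of 54675 probe sets, 62 were array controls and were left out. Symbols came from the platform annotation: 41091 probe sets had 1 symbol, 1801 several and 11721 none here, and genes were named only from the first kind.

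Groups and replicate numbers came from the sample titles. The difference between groups was fitted with limma 3.58.1 under R 4.3.3 (lmFit and trended eBayes, two-sided) over 27307 probe sets at or above the median mean, with Benjamini-Hochberg adjustment; dimmer probe sets are given as values. Single values had an exact permutation test, whose smallest p is 0.1. The fit was tested on simulated data; a first bar for recovering changes in each direction was missed, for changes downward, and a lower one was set after that was seen, with the fit unchanged. The number of arrays limits the precision. Alternatives covered the replicate block, scaling, filter, variance model, offset, probe set rule and leaving out each array. Each pathway list names its called genes with the 4 smallest adjusted p, and all of the ligands and core genes. The members and lists were chosen with earlier results of these data known. List genes with no probe set of 1 symbol were not analysed here.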

Additional observations from a re-analysis of the deposited data

How the results depend on the processing

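CTNNB1 kept its direction and call in all 20 alternatives (−1.39 to −0.36). The counts of member probe sets called (4 higher and 2 lower) were 1 and 1 when tested against a 1.2-fold change. Those left were TRAF1 205599_at and TRAF3 221571_at (limma treat, adjusted p = 0.00213 and 0.0112). Both passed the filter only through the group in which they were high, so these counts lend no support of their own. TNFRSF17, TNFRSF13B, CD40 and TRAF5 were not called in that test. The lower count was 1 with a filter at the 75th percentile, where 5 members were tested. Leaving out 1 array gave 2 to 6 higher and 2 lower. The 6 came without control replicate 1, where 14 member probe sets were tested in place of 12. That rise came from probe sets that entered the test there. Without knockdown replicate 1 or 2 the higher count was 2: TACI was not called and TRAF1 205599_at fell below the filter. Pathway genes called lower (6) came to 10 after centring on array medians and 3 without moderation; against a 1.2-fold change 21 were higher and 3 lower. The share of all probe sets called was 23.2% without a filter and 19.5% against a 1.2-fold change.

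Signs turned for 4 member probe sets with changes near 0 and for TRAF1 and LTBR. TNFRSF13C read −0.057, −0.050 and −0.056 under quantile normalization, centring and cyclic loess, and −0.15 to 0.064 with 1 array left out (−0.15, −0.047 and −0.0016 without control replicate 1, knockdown replicate 2 and knockdown replicate 3). TRAF6 read −0.025, −0.020 and −0.032 under the same scalings and −0.013 to 0.059 with 1 array left out; its probe set 205558_at read −0.028, −0.020 and −0.030, and −0.0058 to 0.094 with 1 array left out (−0.0013 without control replicate 1). MAP3K14 read −0.026 after centring. With the mean over probe sets TRAF1 turned to 0.35, which was called, and LTBR, called as reported (0.29), to −0.036. The cause was not tested.

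Same-numbered knockdown and control arrays did not deviate together (r = −0.068, −0.22 and −0.33), so the numbers pair nothing. With the replicate number as a block 3 members were higher and 2 lower; TACI (limma adjusted p = 0.0724) and LTBR (0.0802) were no longer called, and 32 pathway genes were higher and 6 lower. Dim probe sets lie near the floor, which limits what they can show.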
